A study of Mus musculus with 12 samples.

Results

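Features '13158', '13159', '13160' and '13162' are 4 of the 18326 rows of a table of unique molecular identifier (UMI) counts from single cells of mouse liver. They were chosen by their neighbouring places in the order of the table and by measured values of these cells, and the working name for the set reads that order as the Cyp2c cytochrome P450 genes and the zone around the central vein. The deposited files number the features and do not pair the numbers with gene names, so this reading could not be checked against the data. The features are therefore called by their numbers, quoted as the table quotes them, and no sequence is shown for them. Feature '13161', which lies between members, and features '13157' and '13163' at either side fell outside the choice and are given for comparison. The choice was made with results from these cells known, and which values were in view is not recorded. Levels between cell clusters and correlations between the members are therefore given as description, and the p-values place each member in a table of all features and are not independent of the choice.

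As background, cytochrome P450 enzymes oxidise drugs, steroids and fatty acids in hepatocytes, and many of their genes stand in tandem arrays of closely related copies. Hepatocytes divide their work along the liver lobule, and many cytochrome P450 enzymes are most abundant near the central vein, where oxygen is lowest. Many hepatic genes also differ between the sexes in rodents, under the sex-dependent rhythm of growth hormone release. Whether the members share sequence, so that reads could be divided between them during counting, was not tested.

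The study profiled livers of wild-type 129S6/SvEv mice of both sexes at 2 zeitgeber times, ZT10 and ZT22, which are hours counted from lights on. There were 3 libraries in each of the 4 groups, female ZT10, male ZT10, female ZT22 and male ZT22, and no group carried a transgene, a deletion or a treatment per the labels. Cells came from collagenase-perfused livers, were enriched for hepatocytes by centrifugation, and were frozen and thawed before 10x Genomics Chromium v3 libraries were made. The labels give neither the age of the mice nor whether replicates are separate animals, so p-values measure only the spread between these libraries.

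The table held 31003 cells and 100273202 UMIs, with 494 to 3949 cells and 2284202 to 14654630 UMIs per library. Clustering gave 8 clusters, of which 3 with strongly distinct leading features (3162 cells) were set apart, and the remaining 27841 cells (89.8%) are called the main population. No marker of hepatocytes could be looked up without names, so the labelled tissue was not checked and clusters keep numbers. Male ZT22 replicate 2 stood apart, with a median intronic fraction of 0.511 and 1.91% of its cells set apart, against 0.213 to 0.308 and 3.83 to 22.9% in the other libraries. Male ZT10 replicate 2 was the smallest library (494 cells) and supplied all 74 cells of the third cluster set apart. Of 30883 distinct barcodes, 120 occurred in 2 libraries and 0 in more.

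The 4 members were moderately abundant features. Over all cells feature '13162' had 34242 UMIs, which was 0.0341% of all UMIs and rank 353 among the features, and at least 1 UMI in 55.3% of cells. Feature '13160' followed with 12558 UMIs (0.0125%, 27.0% of cells), then feature '13158' with 11769 UMIs (0.0117%, 23.6% of cells) and feature '13159' with 7833 UMIs (0.00781%, 15.6% of cells). Most positive cells held few copies. A single UMI was found in 51.0% of the cells positive for feature '13162' and in 61.5 to 68.3% of those positive for the other members, and no cell held more than 27 UMIs of a member. The rows around them ran from 10203 UMIs for feature '13157' to 19777 for feature '13161' and 68726 for feature '13163'. The order of the members is one of UMI counts, and whether the features are captured equally well was not tested.

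Features '13158', '13159' and '13160' were far higher in female than in male libraries, and feature '13162' was not called, with overlapping sexes. UMIs of the main population were summed per library, scaled by edgeR's TMM factors to normalised counts per 1000000 counts (CPM), and tested with edgeR's quasi-likelihood test with Benjamini-Hochberg adjustment over 11857 features at a threshold of 0.05. In such sums, fewer cells of a type and less RNA per cell cannot be told apart. Over all features 6.31% were called for sex and 3.44% were called higher in females. Of the 4 members, 3 were called higher in females and 0 lower. The median log2 fold change was 5.04 over the members and -0.01 over all features tested.

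Feature '13158' measured 287, 140 and 252 CPM in the 3 female ZT10 libraries, 263, 256 and 271 in the female ZT22 libraries, 0.71, 3.5 and 1.15 in the male ZT10 libraries, and 1.52, 1.45 and 2.73 in the male ZT22 libraries. The sexes did not overlap, and every male library was close to 0 beside the female ones. Female libraries averaged 245 ± 52.7 CPM and male libraries 1.84 ± 1.06 CPM (SD, n = 6 each), a log2 fold change of 7.29 ± 0.33 (SE), and passed with an adjusted p of 1.7e-09 in edgeR. Female ZT10 replicate 2 was the lowest female library, while the other 5 kept between 252 and 287 CPM.

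Feature '13159' was the most variable member among females. It measured 86.1, 66.2 and 295 CPM at ZT10 and 207, 211 and 162 CPM at ZT22 in female libraries. The male values were 0.28, 2.00 and 0.11 CPM at ZT10 and 0, 0.24 and 1.15 CPM at ZT22. No male library reached any female library, and male ZT22 replicate 1 had no UMI of it in 1633 main population cells, which allows a share of up to 0.184% of cells with a UMI at this depth by the rule of 3 counts, and up to 0.226% by the exact 95% interval (counting error only). Means were 171 ± 85.5 CPM in females and 0.63 ± 0.79 CPM in males (SD, n = 6 each), a log2 fold change of 8.50 ± 0.59 (SE), and passed with an adjusted p of 1.9e-07 in edgeR. The size of this fold rests on 22 male UMIs against 7449 female ones, and it ran from 8.02 without female ZT10 replicate 3 to 9.40 without male ZT22 replicate 3.

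Feature '13160' showed a smaller difference on top of a clear male level. Female libraries measured 269, 239.7 and 241 CPM at ZT10 and 275, 213 and 116 CPM at ZT22. Male libraries measured 30.6, 28.0 and 36.5 CPM at ZT10 and 32.9, 34.9 and 30.1 CPM at ZT22. The male libraries were closely grouped, and the lowest female library, female ZT22 replicate 3, was still above all of them. The means were 226 ± 58.0 CPM in females and 32.2 ± 3.19 CPM in males (SD, n = 6 each), a log2 fold change of 2.80 ± 0.20 (SE), and passed with an adjusted p of 2.4e-07 in edgeR.

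Feature '13162' did not separate the sexes. Female libraries measured 643, 336 and 356 CPM at ZT10 and 371, 293 and 244 CPM at ZT22, and male libraries 318, 261 and 260.2 CPM at ZT10 and 367, 248 and 306 CPM at ZT22. The ranges overlapped, with female ZT10 replicate 1 alone far above the rest. Means were 374 ± 140 CPM in females and 293 ± 45.6 CPM in males (SD, n = 6 each), a log2 fold change of 0.32 with a 95% interval from -0.07 to 0.72 (edgeR adjusted p = 0.399). Without female ZT10 replicate 1 the log2 fold change was 0.13.

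**Figure D1:**
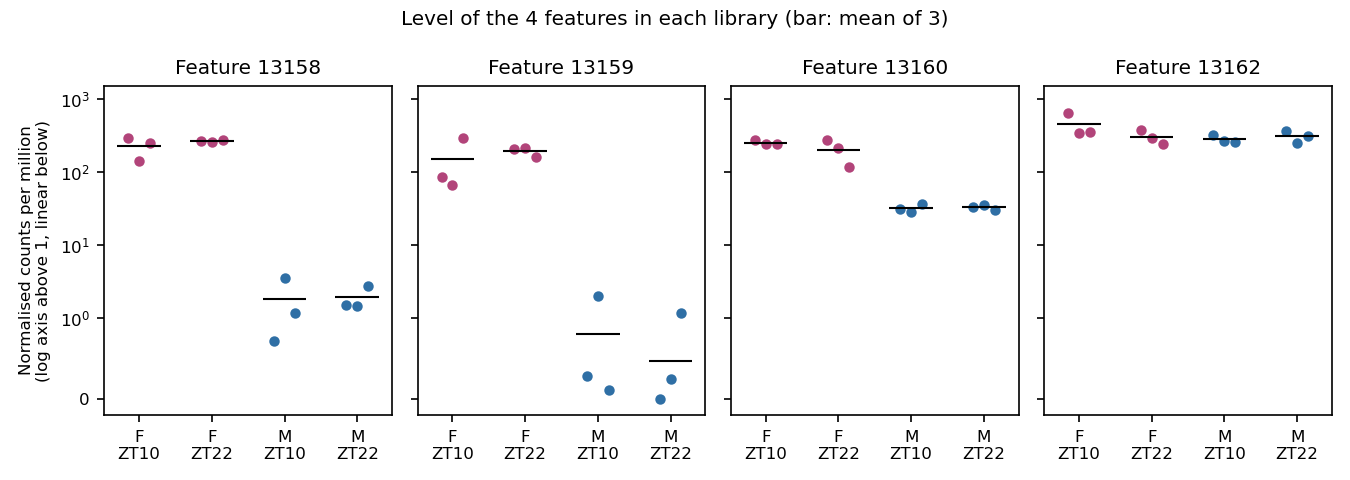
Normalised CPM of each member (vertical axis, logarithmic above 1 and linear below) in the 12 libraries, 1 point per library, with the mean of each group of 3 as a bar. Features '13158' and '13159' lie at or below 3.5 in every male library, feature '13160' lies between 28.0 and 36.5 in males, and feature '13162' overlaps between the sexes.

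The sex difference was read separately at each time. At ZT10, 1.40% of features were called higher in females, and at ZT22 2.40% were. The same 3 members were called at both times, with log2 fold changes of 7.51 and 7.07 for feature '13158', 8.54 and 8.46 for feature '13159', and 2.97 and 2.63 for feature '13160' (edgeR, largest adjusted p = 3.7e-05). Leaving out 1 library kept these calls but moved the size of the fold for feature '13159', from 7.57 without female ZT10 replicate 3 to 9.33 without male ZT10 replicate 2 at ZT10, and from 8.03 without male ZT22 replicate 1 to 10.27 without male ZT22 replicate 3 at ZT22. At ZT10 it was also 7.94 by DESeq2, 9.39 in cells with an intronic fraction under 0.3 and 9.27 with the code of the library names as a block. The ranges were 6.96 to 7.96 and 6.88 to 7.46 for feature '13158', and 2.90 to 3.09 and 2.31 to 2.87 for feature '13160'. At ZT10 the female libraries of feature '13162' were all above the male ones, and the share of all features so separated was not counted. Its log2 fold change of 0.67 there did not pass (edgeR adjusted p = 0.390) and fell to 0.30 without female ZT10 replicate 1. At ZT22 its log2 fold change was -0.02 with a 95% interval from -0.58 to 0.54. Among the 408 features called higher in females over both times, feature '13159' ranked 17 by fold, feature '13158' ranked 25 and feature '13160' ranked 67.

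The neighbouring rows went different ways. Feature '13161', which lies between features '13160' and '13162', was lower in females, at 152 against 245 CPM (log2 fold change -0.70 ± 0.15 SE, adjusted p = 0.0102 by edgeR). Feature '13157' was higher in females with overlapping ranges, at 150 against 77.8 CPM (log2 fold change 0.94, edgeR adjusted p = 0.0295). Feature '13163' was not called (log2 fold change 0.27, edgeR adjusted p = 0.605).

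Within the libraries whose names share a leading code, the difference between the sexes was as large. The meaning of this code is not stated, and 4 of the 6 codes hold libraries of both sexes. With the code as a block the log2 fold changes were 7.5, 8.92 and 2.88 for features '13158', '13159' and '13160' (edgeR, largest adjusted p = 3.7e-06) and 0.29 for feature '13162' (edgeR adjusted p = 0.638). Leaving out any one library moved the log2 fold change of feature '13158' no further than 7.01 to 7.51 and that of feature '13160' no further than 2.64 to 2.92. Without male ZT22 replicate 2 it was 7.22, 8.33 and 2.81 for features '13158', '13159' and '13160', and without male ZT10 replicate 2 it was 7.51, 8.89 and 2.75.

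No member was called for time. Each code holds libraries of 1 time only, so the time and the code cannot be told apart. Over all features 9.27% were called between ZT22 and ZT10, with 3.10% called in females alone and 4.37% in males alone. The log2 fold changes from ZT10 to ZT22 were 0.44 (95% interval -0.16 to 1.03) for feature '13158', 0.41 (-0.91 to 1.73) for feature '13159', -0.14 (-0.51 to 0.23) for feature '13160' and -0.21 (-0.61 to 0.18) for feature '13162'. These intervals leave room for changes of either sign. The largest time difference in females was that of feature '13162', at 445 ± 172 CPM at ZT10 and 303 ± 64.3 CPM at ZT22 (SD, n = 3 each; log2 fold change -0.56, edgeR adjusted p = 0.398). Without female ZT10 replicate 1 it was -0.20. A test of whether the sex difference changed with time called 0 features by edgeR, which was 0% of those tested, with 681 at an unadjusted p under 0.05 and 13 by DESeq2, and the smallest edgeR adjusted p of a member was 0.919.

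The make-up of the members' summed UMIs therefore differed between the sexes. In males feature '13162' supplied 87.2 to 91.4% of the sum and feature '13160' supplied 8.19 to 12.3%, with 0.20 to 1.19% from feature '13158' and 0 to 0.68% from feature '13159'. In females feature '13162' supplied 30.1 to 50.04%, feature '13158' 17.9 to 34.1%, feature '13160' 14.7 to 30.6% and feature '13159' 6.70 to 25.8%. The sum made up 0.092 to 0.151% of non-mitochondrial UMIs in female libraries and 0.034 to 0.043% in male libraries. Among the female libraries, feature '13159' supplied 6.70% and 8.46% in replicates 1 and 2 of ZT10, which share a code, and 18.6 to 25.8% in the other 4.

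**Figure D2:**
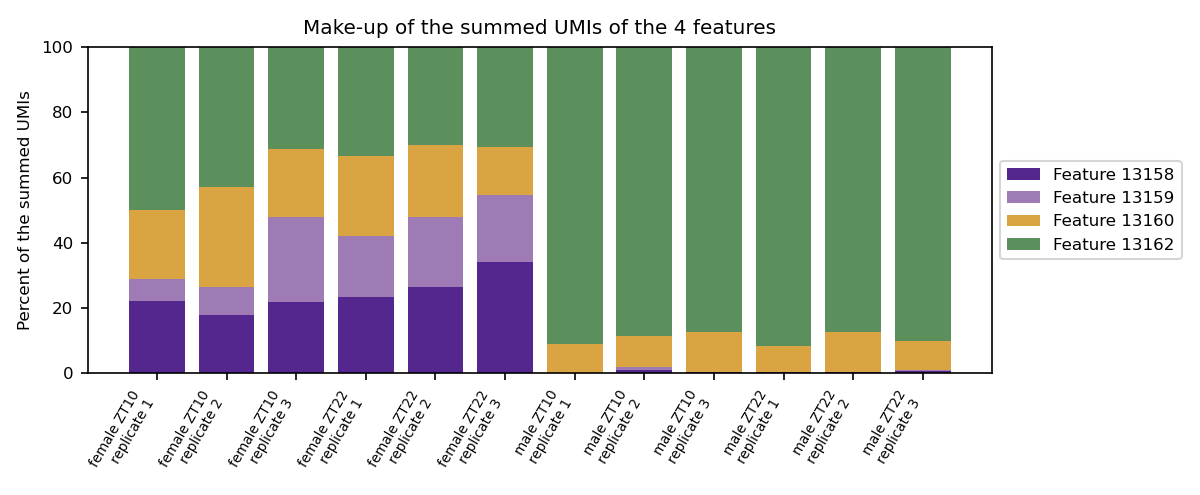
Percent of the summed UMIs of the 4 members (vertical axis) supplied by each member in the main population of each of the 12 libraries. Female libraries draw on all 4 members, whereas feature '13162' supplies 87.2 to 91.4% in male libraries.

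Detection followed the same pattern in single cells. The share of main population cells with at least 1 UMI of feature '13158' had a median of 46.4% over the female libraries (40.9 to 53.4%) and 0.504% over the male libraries (0.288 to 1.84%). For feature '13159' the medians were 32.3% (20.2 to 46.2%) in females and 0.096% (0 to 1.05%) in males. For feature '13160' they were 45.6% (30.3 to 55.5%) and 10.5% (9.24 to 13.4%). Female and male libraries did not overlap for these 3, and the share of all features without such overlap was not counted. For feature '13162' the medians were 52.8% (46.8 to 77.8%) in females and 56.8% (45.8 to 64.7%) in males, with overlap. Some member was seen in a median of 85.3% of female cells and 60.8% of male cells.

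Depth sets part of these shares, so cells were also thinned to 1000 non-mitochondrial UMIs, which left out 537 shallower cells. The female and male medians then were 23.96% and 0.163% for feature '13158', 16.2% and 0.082% for feature '13159', 23.5% and 4.25% for feature '13160', and 29.2% and 29.1% for feature '13162'. In males, feature '13158' was found in 78 of 15079 cells and feature '13159' in 22, nearly always as 1 UMI. None of these cells carried a barcode that was also in a female library. Only 120 of 30883 distinct barcodes occurred in 2 libraries, so shared barcodes were rare in any case. The source of these male UMIs was not tested.

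The clusters set apart give a level for cells of other kinds. In females feature '13158' had a UMI in 22.3% of cells in cluster 6 (median 1669 UMIs per cell) and 25.5% in cluster 7 (1960.5 UMIs), against 46.7% in cluster 1 (3469 UMIs), the largest. At 1000 UMIs per cell the mean shares were 13.4%, 13.6% and 20.8%. Feature '13162' had 21.6% and 20.4% in clusters 6 and 7 at that depth in females, against 21.2% in cluster 1. Free RNA in the suspension can give such UMIs, and its part in these shares was not tested. Detection of feature '13162' in cluster 1 was thus near that of the cells set apart. In clusters 3 and 4 it was 49.0% and 58.7% at that depth, and that of feature '13158' was 32.9% and 31.45%, both above the cells set apart.

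In females all 4 members were highest in clusters 3 and 4. These clusters were made from all features, members included, so the levels are described without a test. Feature '13162' averaged 758 ± 216 and 941 ± 312 CPM of non-mitochondrial UMIs in clusters 3 and 4 of the 6 female libraries, against 241 to 366 in clusters 1, 2 and 5 (SD, n = 6). Feature '13160' averaged 433 ± 105 and 450 ± 109, against 165 to 194. Feature '13158' averaged 393 ± 71.2 and 395 ± 71.5, against 199 to 241, so the ratio between its highest and lowest main cluster was the smallest of the 4.

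Feature '13159' had another order among the clusters. It averaged 407 ± 195 in cluster 3 and 311 ± 184 in cluster 4, 171 and 164 in clusters 2 and 5, and 73.1 ± 51.8 in cluster 1, which was below its 115 and 92.8 in clusters 6 and 7. Cluster 1 had the highest mitochondrial percentage, with a median of 18.6%, and cluster 2 the lowest, with 2.70%. Clusters 4 and 5 were the shallowest of the main population, with medians of 1826.5 and 1919.5 UMIs per cell.

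The cluster pattern was also present in males for the members detected there. Male libraries averaged 619 and 748 CPM of non-mitochondrial UMIs of feature '13162' in clusters 3 and 4, against 214 to 332 in clusters 1, 2 and 5. For feature '13160' they averaged 72.7 and 64.3 against 21.5 to 48.3. In cluster 3 the female average of feature '13160' was 433 and the male average 72.7, so the lower male level was present inside the clusters where the feature was highest. Feature '13158' stayed at 0.99 to 2.99 in every main cluster of males.

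**Figure D3:**
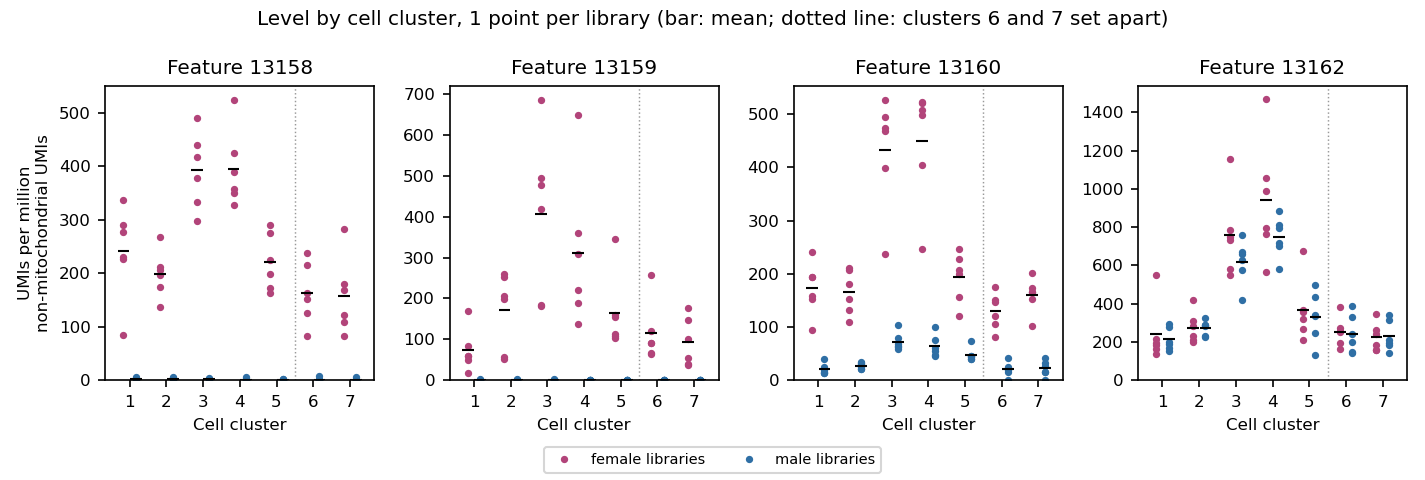
CPM of non-mitochondrial UMIs (vertical axis, a separate scale for each member) by cell cluster, with 1 point per library and the mean as a bar. Clusters 3 and 4 are highest for all 4 members in females, and clusters 6 and 7 right of the dotted line are those set apart.

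Within a library the members were weakly and positively correlated from cell to cell in females. Pearson's r was computed across main population cells on log counts per 10000 non-mitochondrial UMIs, and it is a description in sparse counts, since the cells of a library share their preparation and differ in depth. In females all 6 pairs had a positive r in 6 of 6 libraries. The medians were 0.232 for features '13160' and '13162' (0.156 to 0.282), 0.227 for features '13159' and '13162' (0.154 to 0.282), 0.156 for features '13158' and '13162', 0.141 for features '13159' and '13160', 0.125 for features '13158' and '13160', and 0.111 for features '13158' and '13159' (0.039 to 0.162). Feature '13162' was thus the partner in the highest pairs, and features '13158' and '13159', next to each other and both nearly absent in males, gave the lowest median. In males only features '13160' and '13162' were common enough, with a median of 0.130 (0.016 to 0.163).

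At 1000 UMIs per cell the female means fell to between 0.050 and 0.140, and all stayed above 0. At that depth cells with a UMI of one member held another more often than cells without it, for every pair in 6 of 6 female libraries. For example, feature '13162' was seen in a median of 44.9% of female cells with feature '13159' and 26.6% of those without.

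Feature '13161' correlated with the members to a similar degree although its sex difference ran the other way. Its median r with feature '13162' was 0.208 in females and 0.178 in males, and with feature '13160' it was 0.166 and 0.084. Features '13157' and '13163' had lower medians with the members in females, between 0.039 and 0.099. Ranked among 1354 features of at least 100 CPM by mean female r, feature '13162' stood at 2 for feature '13160' and at 6 for feature '13158', while feature '13158' stood at 43 of 1355 for feature '13159'. Rows outside the set thus correlated with a member more closely than some members did.

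Over the 12 libraries the features most like the summed members were '5947', with a mean r of 0.415 (0.102 to 0.557), and '4943', with 0.303 (0.093 to 0.439), among 1352 features of at least 100 CPM. Those least like them were '5186', at -0.242, and '3983', at -0.210. The median feature had a mean r of -0.003, and the 5th and 95th percentiles were -0.075 and 0.111. Over female and male libraries the mean r was 0.455 and 0.374 for feature '5947', and 0.310 and 0.296 for feature '4943'. In males feature '13162' supplied 87.2 to 91.4% of the sum, so likeness there is largely to that member.

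**Figure D4:**
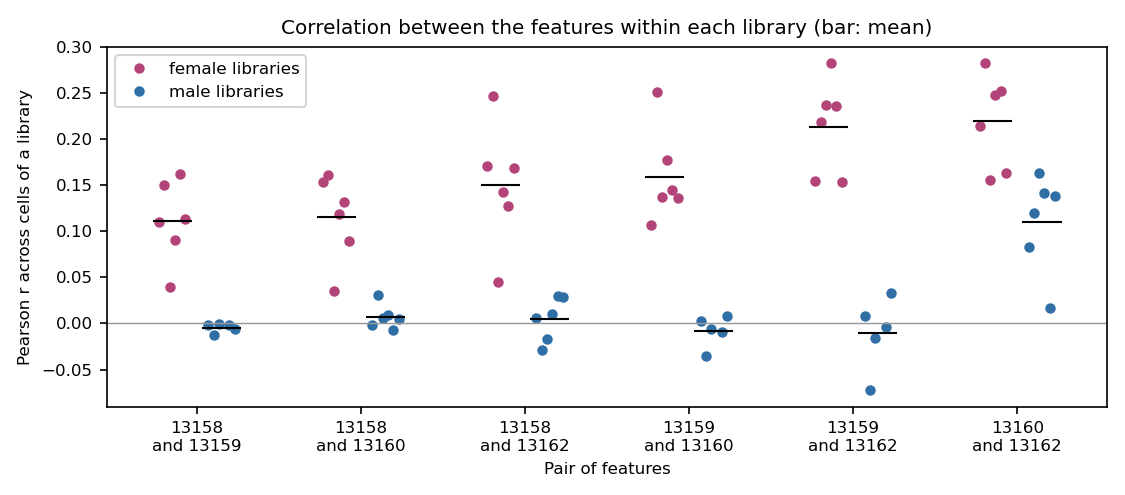
Pearson's r between each pair of members across the main population cells of a library (vertical axis), with 1 point per library and the mean as a bar. All female points lie above 0. In males features '13160' and '13162' have a median of 0.130 (0.016 to 0.163), and the male points of the other pairs lie between -0.073 and 0.033.

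The members were next compared between cells above and below their own library's median of the deposited intronic fraction, mitochondrial percentage and UMI depth. Counts were summed per library and set of cells, mitochondrial features were left out, and edgeR was fitted with the library as a block. The CPM values of these sets were scaled by TMM factors. Values called CPM of non-mitochondrial UMIs were not. The 3 measures are related within a library, most for the intronic fraction and mitochondrial percentage, with a median Spearman's rho of -0.214 over libraries, and their separate parts in a result were not tested beyond splits within 10 bins of another measure. The male counts of features '13158' and '13159' are too low for such a split, so the CPM values and library counts below for these are those of females. Their log2 fold changes, intervals, ranks and adjusted p come from the fit to all 12 libraries, males included.

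After TMM scaling, features '13158', '13160' and '13162' were called lower in cells with a higher intronic fraction, as were 37.3% of the 9961 features tested. Feature '13162' fell in 6 of 6 female libraries, from 508 ± 166 to 371 ± 160 CPM. It also fell in 6 of 6 male libraries, from 386 ± 48.9 to 313 ± 54.0 CPM (log2 fold change over both sexes -0.40 ± 0.06 SE, adjusted p = 5.1e-08 by edgeR). Spearman's rho between the intronic fraction and its unscaled share of non-mitochondrial UMIs was negative in 6 of 6 female libraries (median -0.109). In males this rho was negative in 4 of 6 libraries (median -0.028). The male intronic quintiles, from lowest to highest, averaged 393, 341, 350, 377 and 321 CPM of non-mitochondrial UMIs. After TMM scaling, feature '13160' also fell in all 12 libraries, from 291 ± 67.0 to 237 ± 67.7 CPM in females (log2 fold change -0.35 ± 0.06 SE, adjusted p = 1.0e-06 by edgeR). Its unscaled rho was negative in 5 of 6 female libraries (median -0.051) and 3 of 6 male libraries (median -0.005). The female quintiles averaged 262, 261, 270, 278 and 204 CPM of non-mitochondrial UMIs, so only the highest was lower. Feature '13158' fell after TMM scaling in 6 of 6 female libraries, from 315 ± 66.8 to 259 ± 64.4 CPM (log2 fold change over both sexes -0.25 ± 0.08 SE, adjusted p = 0.00436 by edgeR). Its unscaled rho was negative in only 3 of 6 female libraries (median -0.024). The female quintiles averaged 269, 283, 300, 291 and 235 CPM of non-mitochondrial UMIs, a rise and then a fall. Feature '13158' was not called by DESeq2, at -0.09 (adjusted p = 0.692). In males it fell in only 1 of 6 libraries, with 23 UMIs below the median and 51 above it. Feature '13159' was not called (log2 fold change -0.09, 95% interval -0.25 to 0.07, edgeR adjusted p = 0.344).

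Feature '13159' had the clearest relation to the mitochondrial percentage. In the cells above the median it measured 85.9, 38.7 and 287 CPM in the female ZT10 libraries and 153, 169 and 160.1 CPM in the female ZT22 libraries. Below the median the same libraries measured 112, 119 and 403 CPM and 325, 331 and 215 CPM. It was thus lower above the median in 6 of 6 female libraries, with a mean of 149 ± 84.5 against 251 ± 121 CPM (SD, n = 6; log2 fold change -0.77 ± 0.10 SE, adjusted p = 3.4e-07 by edgeR). Over all features 16.4% were called lower above the median, and feature '13159' ranked 431 of 9932 by p.

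The other members were not called for the mitochondrial percentage. Feature '13158' had a log2 fold change of 0.09 (edgeR adjusted p = 0.579), with 5 of 6 female libraries higher above the median and female ZT10 replicate 2 lower, at 113 against 217 CPM. Without female ZT10 replicate 2 it was called higher, at 0.26 (edgeR adjusted p = 0.00638), and it was also called higher in thinned cells, at 0.28, and over all deposited cells, at 0.28. Feature '13160' had a log2 fold change of -0.16 (edgeR adjusted p = 0.0748) and feature '13162' of -0.19 (edgeR adjusted p = 0.0596). Both were called lower when cells were split within 10 bins of another measure, at -0.32 and -0.34, and feature '13162' was called in female libraries alone, at -0.39 (edgeR adjusted p = 0.00138), with -0.01 in male libraries alone. Feature '13162' was also called with DESeq2-type (RLE) size factors in edgeR, at -0.20 (adjusted p = 0.0498), and without a filter on low counts, at -0.18 (adjusted p = 0.00975), so its call depends on the scaling and the filter. Feature '13160' was also called without female ZT10 replicate 1, female ZT10 replicate 3 or male ZT22 replicate 2, with adjusted p from 0.0311 to 0.0489, and feature '13162' without male ZT22 replicate 2 or 3, with adjusted p of 0.0261 and 0.0111 (edgeR).

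The order of the members in this ratio was much alike across the female libraries. The log2 ratio of feature '13159' lay below that of feature '13158' in 6 of 6 female libraries, by 0.90 ± 0.25 (SD), and below those of features '13160' and '13162' in 6 of 6. Of 18 such comparisons over the 3 measures, chosen after the ratios were seen, none passed an exact two-sided sign-flip test after adjustment. The smallest exact p that 6 libraries allow is 0.03125, and the smallest adjusted p was 0.0703.

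Quintiles of the cells by mitochondrial percentage showed that the relation was not a steady one. Over the female libraries feature '13159' averaged 201, 315, 236, 142 and 78.3 CPM of non-mitochondrial UMIs from the lowest to the highest quintile, in which the median percentage rose from 1.85 to 25.9. Feature '13158' averaged 209, 328, 339, 274 and 239 and so stayed higher in the upper quintiles. Feature '13160' averaged 205, 351, 306, 239 and 183, and feature '13162' averaged 342, 640.2, 525, 366 and 278. All 4 were higher in the second quintile than in the lowest and peaked in the second or the third. The lowest value of feature '13158' was in the lowest quintile, and that of the other 3 was in the highest.

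**Figure D5:**
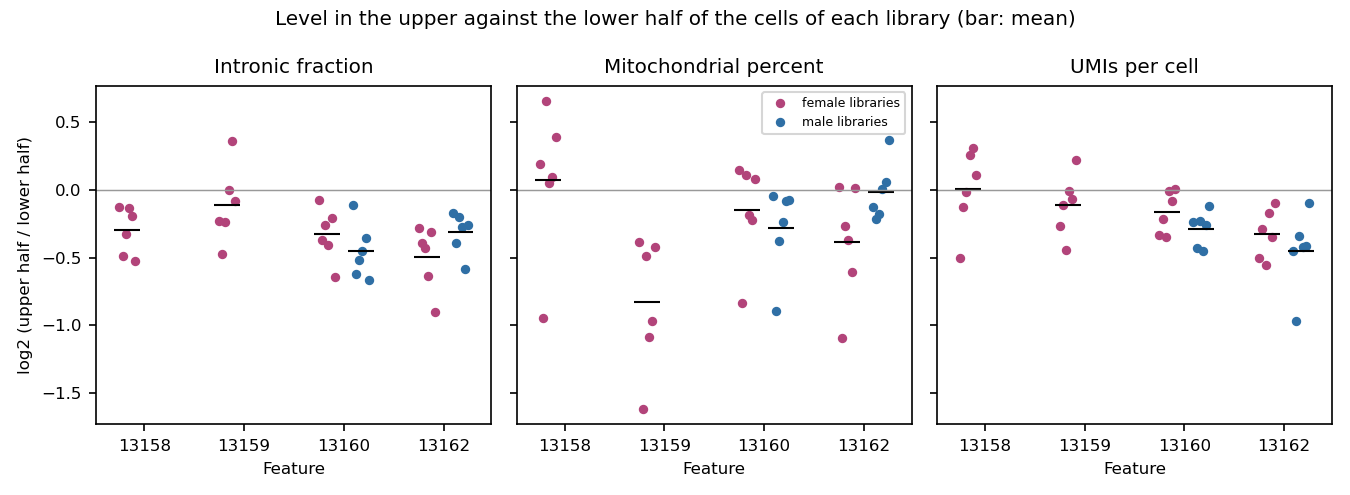
Log2 ratio of TMM-scaled CPM above to below the library's median (vertical axis) of the intronic fraction, the mitochondrial percentage and the UMIs per cell, with 1 point per library. Male libraries are not drawn for features '13158' and '13159', whose male counts are low. Feature '13159' lies below 0 in all 6 female libraries for the mitochondrial percentage, and feature '13162' lies below 0 in all 12 libraries for the intronic fraction and for depth.

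Depth was counted without the members and without mitochondrial UMIs. Feature '13162' was lower in deeper cells in all 12 libraries, with means of 399 ± 133 against 512 ± 218 CPM in females and 311 ± 51.9 against 425 ± 74.5 CPM in males (SD, n = 6 each; log2 fold change -0.38 ± 0.06 SE, adjusted p = 9.2e-05 by edgeR). Only 2.06% of the 10147 features tested were called lower in deeper cells, and it ranked 73 by p. Feature '13160' was called lower at -0.20 (edgeR adjusted p = 0.0339), but the call was lost over all deposited cells, at -0.07, without a filter on low counts, at -0.15, in either sex alone, at -0.17 in females and -0.26 in males, and when any of 7 libraries was left out, with adjusted p from 0.0554 to 0.120. These were the 3 female ZT10 libraries, male ZT10 replicates 1 and 3, and male ZT22 replicates 1 and 3. Feature '13158' differed by -0.01 (95% interval -0.16 to 0.15) and feature '13159' by -0.11 (-0.27 to 0.04), and neither was called. The value for feature '13158' averages opposite signs. Its female log2 ratios were -0.50, -0.13 and -0.02 at ZT10, and 0.26, 0.31 and 0.11 at ZT22. Whether its relation to depth differs between these groups was not tested. The shallow cluster 4 was the one with the highest level of feature '13162'.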

How the data were processed

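The authors deposited 1 table of UMI counts per cell and feature and 1 table per cell with the total counts, the mitochondrial percent, the intronic fraction (its denominator is not stated) and the library name. Cell Ranger 6.1.2, Seurat and mm10 are named in the submitters' processing notes; what was filtered before deposit is not given in the sources used here. The deposited percent values equal the share of UMIs in 13 features in all 31003 cells, and these were taken as mitochondrial.

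Cells were clustered with scanpy 1.11.5 (2000 variable features centred per library, 8 principal components, 15 neighbours, Leiden resolution 0.3); clusters whose 10 leading features had a median fold above 8 were set apart. No doublet caller was run. Sums per library were tested with edgeR 4.0.16 (TMM, filterByExpr, 1 mean per group, 12 libraries), with DESeq2 1.42.0 as an alternative, after a check on simulated data. Thinning drew 1000 UMIs per cell. Library depth was 2284202 to 14654630 UMIs. Detection shares carry counting error only.

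The text names the 4 members, the 3 adjacent features and the 2 features most and least like the summed members. Members and lists were chosen with earlier results of these data known. Deviations from the group means were correlated between same-numbered libraries of the 2 sexes over 7188 features. The r was 0.202, 0.178 and 0.390 at ZT10, and 0.163, -0.049 and -0.019 at ZT22. Between male ZT10 and male ZT22 it was -0.177, 0.479 and 0.522. Differently numbered libraries were not compared, so whether the numbers pair libraries is not known. Alternatives were other normalisations and filters, all cells, blocks for the replicate or library code, and each library left out.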

Additional observations from a re-analysis of the deposited data

Results flagged for a closer look

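Single libraries far from the other 5 of their sex were sought in 26 sets of 6 libraries. The sets held normalised levels, and log2 ratios above to below the median of intronic fraction, mitochondrial percentage and depth. The gap to the nearest library over the whole range was set against a critical value of 0.625, which chance passes in about 1 in 20 sets. Both libraries found were in sets of levels. Feature '13158' in female ZT10 replicate 2 was low, at 140.3 CPM with the nearest female library at 252 CPM (gap 0.762 of the range). Feature '13162' in female ZT10 replicate 1 was high, at 643 CPM with the nearest at 371 CPM (gap 0.681 of the range). These 2 libraries share a library code, and they also have the lowest levels of feature '13159' among females. Female ZT10 replicate 1 had the lowest median mitochondrial percentage of all libraries, 5.74%, and female ZT10 replicate 2 had 15.5%. The part of these measures in the levels was not tested.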

How the results depend on the processing

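The calls of features '13158', '13159' and '13160' as higher in females held in all 21 alternatives, with a largest adjusted p of 3.7e-06. The replicate block called 865 features for sex and moved no member's call for sex. Counts of calls over all features moved by more than 1.5 times in the following settings. For the interaction they were 13 with DESeq2, 4 without a filter and 0 to 2 with 1 library left out, against 0. For time in females they were 607 with DESeq2, 639 in cells with an intronic fraction under 0.3 and 142 to 678 with 1 library left out, against 368. The library code as a block gave 495 for sex, 208 at ZT10 and 307 at ZT22, against 748, 324 and 493. Leaving out 1 library gave 296 to 567 for sex at ZT22 and 257 to 553 for time in males. Mitochondrial percentage sets gave 2084 in thinned cells and 1621 in male libraries, against 3200. Depth sets gave 1188 without a filter, 738 within bins, 2561 over all cells and 50 in male libraries, against 264.

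Log2 fold changes that turned sign were all uncalled. Feature '13159' gave 0.68 (DESeq2), 0.35 (replicate block), 0.077 (replicate block within each time) and -0.89 to 1.74 (1 library left out) for the interaction, -0.31 (DESeq2) and -1.37 to 1.25 for time in males, and -0.50 to 0.90 for time. Feature '13162' gave 0.034 (code block) and -0.22 to 0.12 for sex at ZT22, and -0.012 to 0.26 for time in males. Feature '13158' gave -0.035 to 0.42 for time in females, -0.91 to 0.093 for the interaction, -0.049 (within bins) and -0.028 to 0.26 for mitochondrial percentage, and 0.055 (no filter), 0.17 (all cells) and -0.059 to 0.10 for depth. Feature '13160' gave -0.027 to 0.15 for time in males and 0.0014 for mitochondrial percentage in thinned cells, and feature '13159' gave 0.076 for depth over all cells. The causes were not tested. With 22 male UMIs of feature '13159' and 74 of feature '13158', depth limits any reading of male changes.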
